A study of Homo sapiens with 6 samples.

Results

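Potassium channel subunits were taken from the deposited count table as the rows whose symbol began with KCN, followed by letters and a number, and that had at least 10 counts in 3 or more libraries. Of 63140 genes in the table, 95 had such a symbol and 47 met the count minimum. The series compared HEK293 cells, an established human line derived from embryonic kidney, given 100 nM GSK-A1 for 24 h with cells given dimethyl sulfoxide (DMSO). The compound GSK-A1 inhibits the enzyme encoded by PI4KA, a phosphatidylinositol 4-kinase. Cells were grown in serum-containing medium and were confluent when treated, and no genotype differed between the groups. There were 3 libraries per group, numbered as biological replicates in the labels, which do not say whether the cultures were grown separately. P-values therefore measure the spread between these libraries. All libraries came from this 1 line, and mature tubule markers were at or near 0 in it.

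Potassium channels let potassium leave or enter the cell along its gradient and so set the resting voltage and end electrical signals. Their pore is built from subunits of the voltage-gated, inward rectifier, tandem-pore (K2P) and calcium-activated families, and auxiliary subunits change their traffic and gating. Many of them, above all the inward rectifiers and the KCNQ channels, need phosphatidylinositol 4,5-bisphosphate in the plasma membrane to open. That lipid is made from phosphatidylinositol 4-phosphate, the product of the kinase that GSK-A1 inhibits. HEK293 cells are a common host for cloned channels because their own potassium currents are small.

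Libraries held 33040178 to 47777233 counts, and the 47 members took between 0.0336% and 0.0355% of them. PI4KA stood at 185 ± 5.1 CPM (counts scaled to a common library size by the trimmed mean of M values) with DMSO and 179 ± 7.2 CPM with GSK-A1 (SD, n = 3), and was not called. Of 8 markers of the line, NEFL, VIM, KRT8, KRT18, CDH2 and PAX2 averaged 715, 1085, 147, 110, 93.9 and 2.71 CPM with DMSO, while NEFM and INA averaged under 1 CPM. Summed over the 8, the range was 2115 to 2190 CPM with DMSO and 2262 to 2460 CPM with GSK-A1, where VIM and KRT8 were called higher and PAX2 lower; the part of this in the results below was not tested. The 6 neuronal markers summed to 37.4 to 40.3 CPM with DMSO and 37.8 to 39.2 CPM with GSK-A1. Tubule markers UMOD, AQP2 and SLC34A1 had no count in any library, as had TNNT2, COL1A2, TTR and HBB. Over all genes, leaving out GSK-A1 replicate 2 raised the number called from 3835 to 4890, while leaving out any other library lowered it. In bulk libraries, fewer cells with a transcript and less of it per cell cannot be told apart.

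Levels were compared between members as mean CPM per kilobase of annotated exon with DMSO. The inward rectifiers KCNJ8 and KCNJ11, the pore subunits of ATP-sensitive potassium channels, led at 13.1 and 6.27 CPM per kilobase. They were followed by KCNS3 (4.64), KCNK2 (4.19), KCNK1 (4.12), KCNQ5 (3.96), KCNMB4 (3.24), KCNJ4 (3.10), KCNK5 (2.97) and KCNG1 (2.68 CPM per kilobase). KCNS3 and KCNG1 are silent subunits that form channels only together with other voltage-gated subunits. Within their families KCNAB2 (2.32), KCNH3 (2.33), KCNA3 (2.30), KCNB2 (1.73), KCNC4 (1.33), KCNIP3 (1.19), KCND1 (1.11) and KCNN1 (0.201 CPM per kilobase) were highest. In each DMSO library the inward rectifiers made up 31.8% to 32.8% of the members' summed CPM per kilobase and the voltage-gated pore subunits 26.3% to 26.8%. With GSK-A1 these shares were 31.5% to 32.8% and 25.5% to 27.6%, so both ranges overlapped between the groups. The members' summed CPM was 344 to 354 with DMSO and 336 to 350 with GSK-A1.

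**Figure D1:**
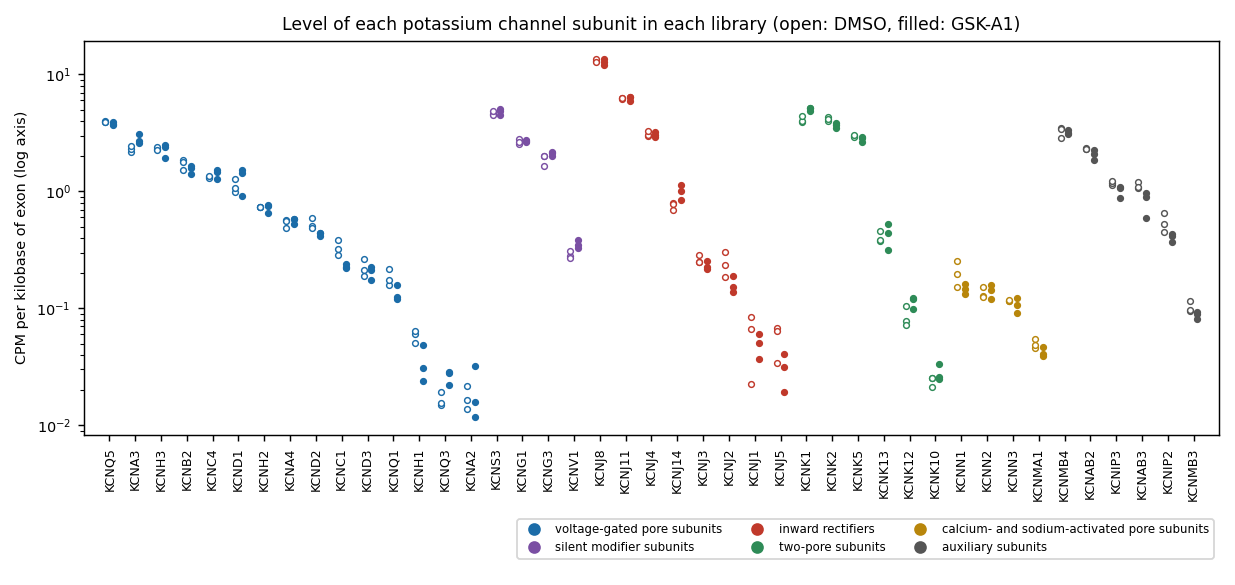
Level of 43 members in each library, as CPM per kilobase of annotated exon on a log axis, grouped by role, with DMSO libraries as open and GSK-A1 libraries as filled points. KCNJ8 lies highest, at 13.1 CPM per kilobase with DMSO, and KCNQ3 and KCNA2 lie lowest, at 0.0165 and 0.0173 CPM per kilobase.

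GSK-A1 was then compared with DMSO by edgeR's quasi-likelihood test over all 16754 genes tested, with a call at a Benjamini-Hochberg adjusted p under 0.05. Of the 46 members tested, 4 were called higher, among them KCNJ14, KCNK1 and KCNA3, and 4 lower, among them KCNC1, KCNAB3 and KCNK2. Called members made up 17.4% of those tested, against 22.9% of all genes tested. The share called higher over all genes was 12.0% and the share called lower 10.9%, beside 8.70% of the members in each direction. The members' share was thus not above that of genes in general. Log2 fold changes of the members ran from -0.82 (KCNJ5) to 0.66 (KCNQ3), and both of these members met the count minimum through 1 group only. The median log2 fold change of the 46 members was -0.07, beside -0.01 over all genes. It was negative in 31 members (67.4%), beside 52.5% of all genes. In 21 members (45.7%) the libraries of the groups did not overlap, against 40.5% of all genes. There were 14 such members with GSK-A1 lower and 7 with GSK-A1 higher, beside 20.4% and 20.2% of all genes. KCNK1 and KCNC1 kept their call in all 16 alternative fits, which covered library factors, count filters, other tools, a GC correction, the replicate block and the omission of each library. Leaving out DMSO replicate 1, 2 or 3 left 4, 3 and 3 members called, and the share called over all genes was then 12.9%, 13.2% and 12.7%. DESeq2 called 4 members, beside 22.0% of all genes.

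**Figure D2:**
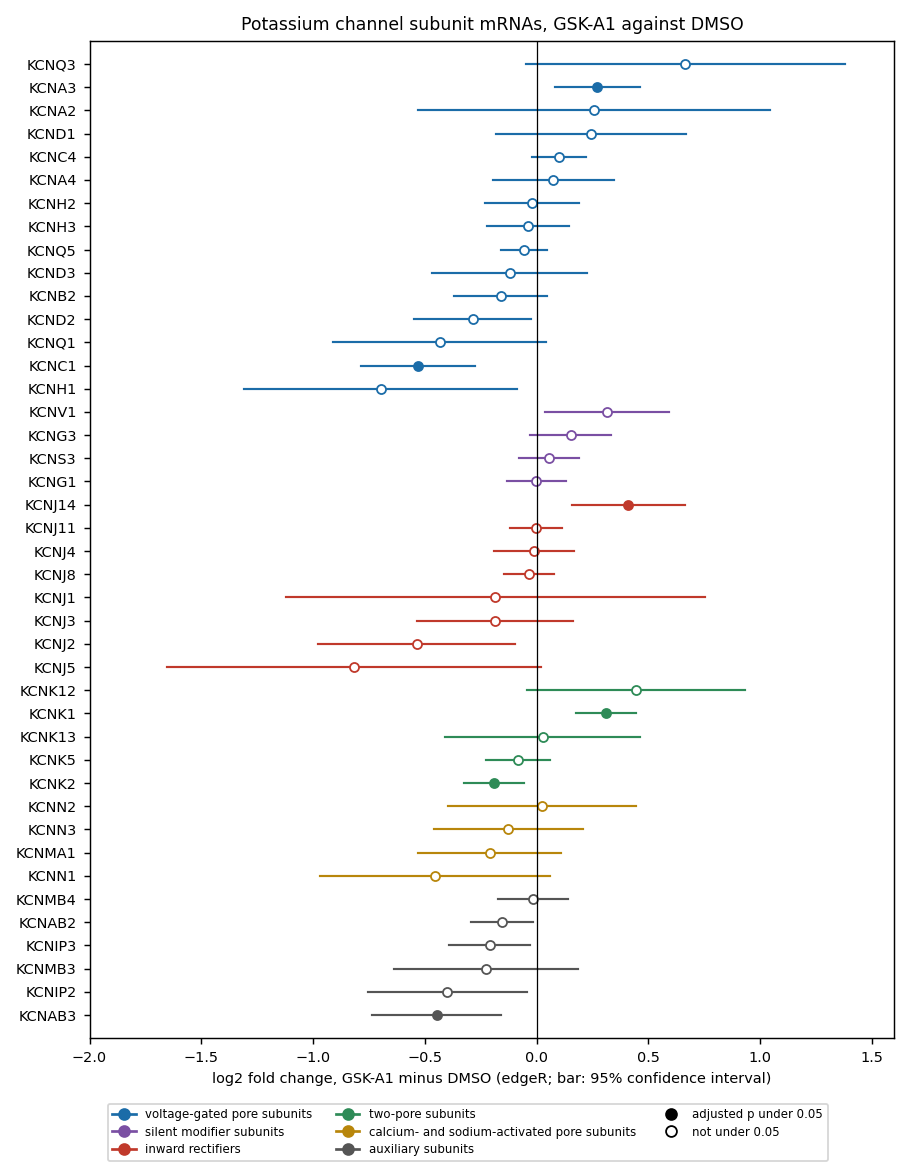
Log2 fold change of 42 tested members, GSK-A1 minus DMSO, with its 95% confidence interval, grouped and coloured by role, with filled points for members called at an adjusted p under 0.05. Most intervals include 0, and the called members shown lie between -0.53 (KCNC1) and 0.41 (KCNJ14).

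Among the voltage-gated pore subunits, 4 of 19 were called (21.1%, beside 22.9% of all genes), 2 higher and 2 lower, and the median log2 fold change was -0.06. It was -0.17 without GSK-A1 replicate 1, -0.02 without DMSO replicate 2 and -0.10 under upper-quartile factors. The KCNC family, whose channels open and close fast and serve high-frequency firing in neurons, held the largest called fall among the members. KCNC1 stood at 5.57, 4.11 and 4.62 CPM with DMSO (replicates 1, 2 and 3, in this order throughout) and at 3.28, 3.19 and 3.47 CPM with GSK-A1. It was lower in all 3 GSK-A1 libraries than in any DMSO library (-0.53 ± 0.12, edgeR adjusted p = 0.00503). DMSO replicate 1 was the highest, and without it the log2 fold change was -0.39 (edgeR adjusted p = 0.0459). KCNC4, at 33.4 ± 0.6 CPM with DMSO the most abundant of the family by count, reached 35.7 ± 3.1 CPM with GSK-A1 and was not called (0.10 ± 0.06, edgeR adjusted p = 0.226). It was lowest in GSK-A1 replicate 2, at 32.2 CPM, and was called without that library (0.17, edgeR adjusted p = 0.00166) and after removal of the GC trend (0.14, edgeR adjusted p = 0.0355).

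**Figure D3:**
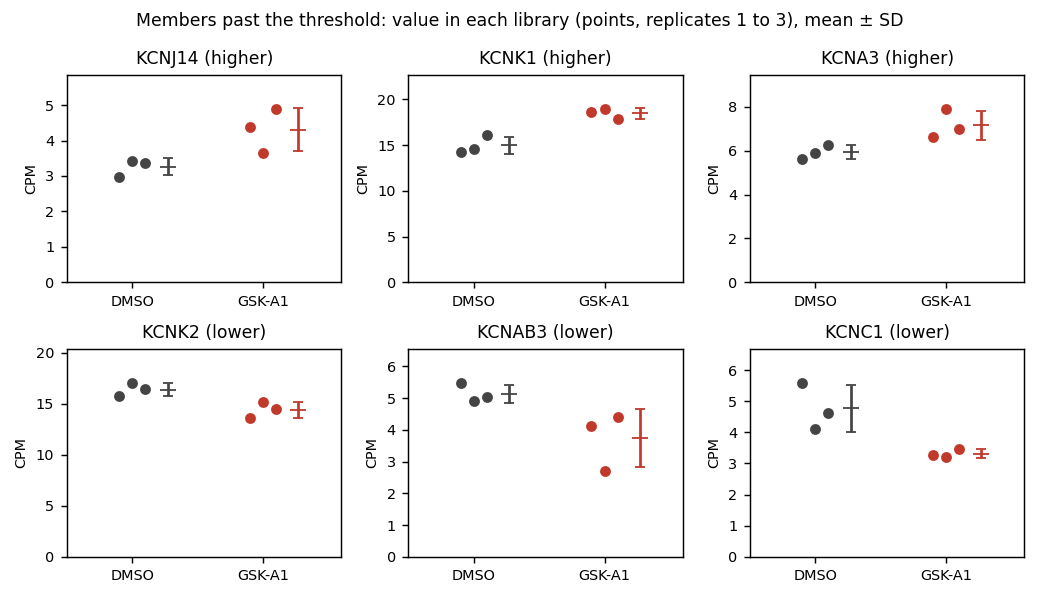
CPM of 6 called members in each library (points, replicates 1 to 3 from left to right) with the mean ± SD of each group (n = 3), on axes that start at 0. In all 6 panels the 3 GSK-A1 libraries lie on 1 side of the 3 DMSO libraries.

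KCNA3, a delayed rectifier best known from T lymphocytes, stood at 5.61, 5.89 and 6.25 CPM with DMSO and at 6.61, 7.88 and 6.96 CPM with GSK-A1. The groups did not overlap and the log2 fold change was 0.27 ± 0.09 (edgeR adjusted p = 0.0388). That call was lost without DMSO replicate 1 (edgeR adjusted p = 0.153), 2 (0.111) or 3 (0.0634) or GSK-A1 replicate 2 (0.0835), under upper-quartile factors (0.0711) and with DESeq2 (0.0882). The 4 leukocyte markers, PTPRC, CD3E and CD14 among them, summed to at most 0.901 CPM in any library. KCNA4 stood at 2.26 ± 0.19 CPM with DMSO and 2.36 ± 0.14 CPM with GSK-A1 (SD, n = 3; edgeR adjusted p = 0.722). KCNA2, at 0.301 ± 0.068 CPM with DMSO, had a 95% interval of -0.53 to 1.04 on the log2 scale.

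The KCNQ family carries the slow, phosphoinositide-dependent M-current of neurons, to which KCNQ3 and KCNQ5 contribute, and repolarizing current of the heart, carried by KCNQ1. KCNQ5, the most abundant of the family, stood at 30.2, 29.9 and 29.8 CPM with DMSO and at 28.0, 29.7 and 28.8 CPM with GSK-A1. Its groups did not overlap, but it was not called (95% interval -0.16 to 0.05; edgeR adjusted p = 0.428). KCNQ1 stood at 0.709, 0.769 and 0.966 CPM with DMSO and at 0.536, 0.703 and 0.555 CPM with GSK-A1. The log2 fold change of KCNQ1 was -0.43 ± 0.23 (edgeR adjusted p = 0.178), and 2.72% of its exonic length lay under the antisense gene KCNQ1OT1. KCNQ3 had 9, 9 and 8 counts with DMSO and 13, 12 and 13 with GSK-A1. It met the count minimum only through the GSK-A1 libraries, and its log2 fold change was 0.66 ± 0.34 (edgeR adjusted p = 0.170).

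Of the remaining voltage-gated pore subunits none was called with all 6 libraries. KCNB2, a delayed rectifier, stood at 6.20 ± 0.62 CPM with DMSO and 5.53 ± 0.43 CPM with GSK-A1 (SD, n = 3; edgeR adjusted p = 0.258). KCNH1, a channel often found in tumour lines, had 24, 27 and 21 counts with DMSO and 22, 8 and 11 with GSK-A1 (-0.70 ± 0.29, edgeR adjusted p = 0.0929). Omitting GSK-A1 replicate 1 made it a call (-1.06, edgeR adjusted p = 0.0484). An antisense gene covered 36.9% of the exonic length of KCNH1. Another gene on the same strand covered 16.1% and held 18.3% of its 50-base stretches. KCNH2, the cardiac hERG subunit, stood at 4.34, 4.33 and 4.29 CPM with DMSO and at 4.40, 3.81 and 4.52 CPM with GSK-A1, with a 95% interval of -0.23 to 0.19 on the log2 scale. KCNH3 had an interval of -0.22 to 0.14. The KCND subunits, which carry the transient A-type current, were KCND1 (0.24 ± 0.18), KCND2 (-0.29 ± 0.12) and KCND3 (-0.12 ± 0.16), given as log2 fold changes with SE and with edgeR adjusted p-values of 0.390, 0.105 and 0.639. KCND1 stood at 5.78, 6.24 and 7.39 CPM with DMSO and at 8.32, 5.30 and 8.88 CPM with GSK-A1. GSK-A1 replicate 2 was below every DMSO library, and without it KCND1 was called higher (0.43, edgeR adjusted p = 1.42e-04).

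The silent modifiers KCNG1, KCNG3, KCNS3 and KCNV1 had no called member (beside 22.9% of all genes) and a median log2 fold change of 0.10. KCNV1 stood at 1.96, 1.87 and 2.14 CPM with DMSO and at 2.30, 2.69 and 2.44 CPM with GSK-A1. Its groups did not overlap (0.32 ± 0.13, edgeR adjusted p = 0.0929). KCNG3 likewise did not overlap, at 6.37 to 7.65 CPM with DMSO and 7.71 to 8.32 CPM with GSK-A1 (edgeR adjusted p = 0.212). Over all genes, 40.5% did not overlap, and 20.2% did so with GSK-A1 higher. KCNS3 (95% interval -0.08 to 0.19) and KCNG1 (-0.13 to 0.13) overlapped between the groups.

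The inward rectifiers, all of which need phosphoinositides to open, had 1 of 8 members called (12.5%, beside 22.9% of all genes). Log2 fold changes were negative in 7, and the median was -0.11. Both include KCNJ5 (-0.82), which met the count minimum only through the DMSO libraries, where it is higher. The median lay nearer 0 when GSK-A1 replicate 1 (-0.035) or DMSO replicate 2 (-0.016) or 3 (-0.027) was omitted. It also did so with limma-voom (-0.027) and with a mean of at least 1 CPM (-0.029). The fit without DMSO replicate 2 tested 7 of the 8, KCNJ5 not among them, and that with at least 1 CPM tested 6. KCNJ14 stood at 2.98, 3.43 and 3.38 CPM with DMSO and at 4.38, 3.66 and 4.88 CPM with GSK-A1. All GSK-A1 libraries were above the DMSO libraries, and the log2 fold change was 0.41 ± 0.12 (edgeR adjusted p = 0.0202). The call was lost without DMSO replicate 1 (edgeR adjusted p = 0.111), 2 (0.0503) or 3 (0.0509) or GSK-A1 replicate 1 (0.0662) or 3 (0.0700), and with DESeq2 (0.0517). The neighbouring gene GRWD1 shared 8.06% of the exonic length of KCNJ14 on the same strand and an antisense gene covered 16.5%, so some of its reads may belong to those genes.

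The abundant members KCNJ8, KCNJ11 and KCNJ4 had nearly the same level in both groups. KCNJ8 stood at 32.6, 33.7 and 31.5 CPM with DMSO and at 31.5, 33.9 and 30.2 CPM with GSK-A1 (95% interval -0.15 to 0.08 on the log2 scale). KCNJ11 stood at 20.3, 19.8 and 20.2 CPM with DMSO and at 20.4, 19.1 and 20.6 CPM with GSK-A1 (-0.12 to 0.11). KCNJ4 stood at 6.17, 6.29 and 6.73 CPM with DMSO and at 6.67, 6.24 and 5.99 CPM with GSK-A1 (-0.19 to 0.17). In all 3 the groups overlapped, and the intervals leave room for a change of up to about 0.19 on the log2 scale. KCNJ2, the classical strong rectifier of heart and muscle, stood at 1.04, 1.32 and 1.69 CPM with DMSO and at 1.05, 0.849 and 0.777 CPM with GSK-A1. The groups met at the lowest DMSO library (-0.54 ± 0.21, edgeR adjusted p = 0.0744), and KCNJ2 was called without that library, DMSO replicate 1 (-0.71, edgeR adjusted p = 0.0449), and after removal of the GC trend (-0.56, edgeR adjusted p = 0.0495). KCNJ3, a subunit of G-protein-gated channels, stood at 1.27, 1.45 and 1.27 CPM with DMSO and at 1.14, 1.29 and 1.11 CPM with GSK-A1 (edgeR adjusted p = 0.449). Its partner KCNJ5 had 10, 19 and 13 counts with DMSO and 9, 4 and 9 with GSK-A1, and met the count minimum only through the DMSO libraries (-0.82 ± 0.40, edgeR adjusted p = 0.150). KCNJ1, the secretory channel of the kidney tubule, had 5, 14 and 13 counts with DMSO and 8, 8 and 10 with GSK-A1, too few for a narrow interval (-1.12 to 0.75).

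The K2P subunits, which dimerize to form the background leak that holds the resting voltage, had 2 of 5 tested members called, in opposite directions (40.0% of these few genes, beside 22.9% of all genes). KCNK1 stood at 14.2, 14.6 and 16.1 CPM with DMSO and at 18.7, 18.9 and 17.8 CPM with GSK-A1. It rose by 24.0% (log2 fold change 0.31 ± 0.06, SE; edgeR adjusted p = 0.00225), with no overlap between the groups. KCNK2, a stretch- and lipid-sensitive channel that phosphoinositides also regulate, stood at 15.7, 17.0 and 16.4 CPM with DMSO and at 13.6, 15.2 and 14.5 CPM with GSK-A1. All GSK-A1 libraries were lower (-0.19 ± 0.06, edgeR adjusted p = 0.0415). That call lay near the threshold and was lost without DMSO replicate 1 (edgeR adjusted p = 0.0618), 2 (0.167) or 3 (0.116) or GSK-A1 replicate 1 (0.205) or 3 (0.0702), with no count filter (0.0571) and with DESeq2 (0.127). KCNK5, an alkaline-activated channel of kidney, stood at 11.2 ± 0.15 CPM with DMSO and 10.5 ± 0.50 CPM with GSK-A1 (SD, n = 3; edgeR adjusted p = 0.406). KCNK12 stood at 0.566 ± 0.112 and 0.763 ± 0.085 CPM (edgeR adjusted p = 0.176), and KCNK13 at 1.02 ± 0.11 and 1.07 ± 0.26 CPM (edgeR adjusted p = 0.941). KCNK10 had 10, 8 and 7 counts with DMSO and 10, 7 and 10 with GSK-A1, which met the minimum of 10 counts in 3 libraries but not the filter of the test.

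Promoter windows are shown for KCNC1, KCNK1 and KCNK2, since KCNK1 and KCNK2 are members of 1 family called in opposite directions and KCNC1 had the largest called fall. Each window runs from 250 bases before to 50 bases after a transcript start, 5′ to 3′ on the gene's strand, from RefSeq on GRCh38.p14. Of the 47 members, 33 matched a window by symbol. KCNC1 lies on chromosome 11 and both other genes on chromosome 1, all on the plus strand. Capitals mark GC boxes, searched as GGGCGG on both strands with overlaps counted.
KCNC1 first start, chr11:17734531-17734830: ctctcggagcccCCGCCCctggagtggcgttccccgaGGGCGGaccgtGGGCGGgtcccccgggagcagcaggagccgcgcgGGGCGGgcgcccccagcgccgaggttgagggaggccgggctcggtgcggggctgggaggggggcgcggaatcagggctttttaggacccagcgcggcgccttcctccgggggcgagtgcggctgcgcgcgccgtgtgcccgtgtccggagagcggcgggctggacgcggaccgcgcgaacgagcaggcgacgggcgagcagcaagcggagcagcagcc
KCNC1 second start, chr11:17735698-17735997: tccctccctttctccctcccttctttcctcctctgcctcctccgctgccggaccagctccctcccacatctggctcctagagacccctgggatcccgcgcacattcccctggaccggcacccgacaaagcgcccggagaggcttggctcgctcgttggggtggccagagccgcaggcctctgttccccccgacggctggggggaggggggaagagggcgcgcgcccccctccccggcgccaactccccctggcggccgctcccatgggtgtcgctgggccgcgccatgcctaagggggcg
KCNK1, chr1:233613856-233614155: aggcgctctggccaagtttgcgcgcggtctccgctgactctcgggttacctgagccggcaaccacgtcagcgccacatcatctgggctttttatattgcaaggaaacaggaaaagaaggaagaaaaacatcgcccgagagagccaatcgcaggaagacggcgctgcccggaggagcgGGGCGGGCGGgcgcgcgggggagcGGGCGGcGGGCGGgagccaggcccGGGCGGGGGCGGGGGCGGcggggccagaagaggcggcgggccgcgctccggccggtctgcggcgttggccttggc
KCNK2 first start, chr1:215005292-215005591: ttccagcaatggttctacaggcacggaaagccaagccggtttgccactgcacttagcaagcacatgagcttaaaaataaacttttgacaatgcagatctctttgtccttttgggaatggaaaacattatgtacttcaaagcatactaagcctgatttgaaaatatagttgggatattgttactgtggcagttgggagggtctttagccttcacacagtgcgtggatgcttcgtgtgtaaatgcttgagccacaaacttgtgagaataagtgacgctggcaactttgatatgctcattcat
KCNK2 second start, chr1:215082487-215082786: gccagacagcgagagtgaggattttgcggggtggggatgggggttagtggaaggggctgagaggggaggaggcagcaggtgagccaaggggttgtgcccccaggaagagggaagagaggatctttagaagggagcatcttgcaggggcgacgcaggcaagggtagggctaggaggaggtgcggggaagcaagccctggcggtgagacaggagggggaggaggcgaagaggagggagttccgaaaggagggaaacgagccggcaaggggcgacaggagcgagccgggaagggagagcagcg
The KCNK1 window held 7 GC boxes, the first KCNC1 window 4, and neither KCNK2 window nor the second KCNC1 window any. Over all 35116 windows of this length 45.0% held a GC box, beside 30 of the 56 windows of members (53.6%). GC content was 70.7% in the KCNK1 window, 78.3% and 72.3% in those of KCNC1, and 42.0% and 64.7% in those of KCNK2, beside a median of 58.7% over all windows and 65.7% over those of members. None of these 5 windows held the EGR motif GCGTGGGCG, the AP-1 motif TGANTCA, the cyclic AMP element TGACGTCA, the E-box CACGTG or a CArG box, on either strand. Those motifs occurred in 0.795%, 7.71%, 1.85%, 7.26% and 1.29% of all windows. A match is a match of letters only.

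The calcium-activated pore subunits KCNMA1, KCNN1, KCNN2 and KCNN3, which couple calcium signals to potassium efflux, had no called member (beside 22.9% of all genes). KCNMA1, the large-conductance channel, stood at 1.63, 1.93 and 1.72 CPM with DMSO and at 1.67, 1.41 and 1.44 CPM with GSK-A1 (-0.21 ± 0.15, edgeR adjusted p = 0.342). KCNN1 stood at 0.605, 1.01 and 0.785 CPM with DMSO and at 0.579, 0.644 and 0.527 CPM with GSK-A1 (-0.45 ± 0.24, edgeR adjusted p = 0.191). KCNN2 and KCNN3 had 95% intervals of -0.39 to 0.44 and -0.46 to 0.21 on the log2 scale. Groups overlapped in all 4 of these genes, whereas they did not in 40.5% of all genes. Summed, the 4 stood at 4.63 to 5.50 CPM with DMSO and 4.27 to 4.66 CPM with GSK-A1.

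All 6 auxiliary subunits had negative log2 fold changes, with a median of -0.22, beside 52.5% of all genes with a negative one, and 1 was called (16.7%, beside 22.9% of all genes). In 5 of them every GSK-A1 library was lower than every DMSO library, beside 20.4% of all genes. Their summed level was 53.1, 55.9 and 56.4 CPM with DMSO and 49.8, 46.0 and 52.2 CPM with GSK-A1. KCNAB3, a cytoplasmic beta subunit of KCNA channels, stood at 5.46, 4.92 and 5.04 CPM with DMSO and at 4.12, 2.69 and 4.41 CPM with GSK-A1. It fell by 0.45 ± 0.14 on the log2 scale (SE; edgeR adjusted p = 0.0275), with GSK-A1 replicate 2 lowest. Without that library the log2 fold change was -0.28 (edgeR adjusted p = 0.0423), and the call was lost without DMSO replicate 1 (0.131), 2 (0.0695) or 3 (0.0733), as adjusted p. A gene on the same strand shared 5.50% of its exonic length. KCNAB2, its more abundant paralog, stood at 21.8, 22.5 and 22.1 CPM with DMSO and at 20.1, 17.8 and 21.6 CPM with GSK-A1 (-0.15 ± 0.06, edgeR adjusted p = 0.0974). KCNAB2 became a call when GSK-A1 replicate 3 was omitted (-0.21, edgeR adjusted p = 0.0284) and under upper-quartile factors (-0.19, edgeR adjusted p = 0.0430).

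KCNIP2 and KCNIP3, calcium-binding partners of the KCND subunits, were lower without a call. KCNIP2 stood at 1.77, 1.52 and 2.20 CPM with DMSO and at 1.24, 1.41 and 1.47 CPM with GSK-A1 (-0.40 ± 0.17, edgeR adjusted p = 0.0978). KCNIP3, also known as the transcriptional repressor DREAM, stood at 8.99, 9.28 and 9.72 CPM with DMSO and at 8.43, 6.94 and 8.63 CPM with GSK-A1. Its log2 fold change was -0.21 ± 0.09 (edgeR adjusted p = 0.0862), and it was called under upper-quartile factors (-0.25, edgeR adjusted p = 0.0465). Of the beta subunits of KCNMA1, KCNMB4 stood at 15.8 ± 1.5 and 15.6 ± 0.8 CPM (SD, n = 3; 95% interval of the log2 fold change -0.17 to 0.14). KCNMB3 stood at 0.925 ± 0.102 and 0.791 ± 0.053 CPM (edgeR adjusted p = 0.434), with 37.9% of its exonic length lying under PIK3CA on the other strand and 22.7% of its 50-base stretches found in the pseudogene KCNMB3P1. The median of the auxiliary subunits stayed below 0 in every alternative fit, from -0.26 to -0.15, the weakest without GSK-A1 replicate 2.

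**Figure D4:**
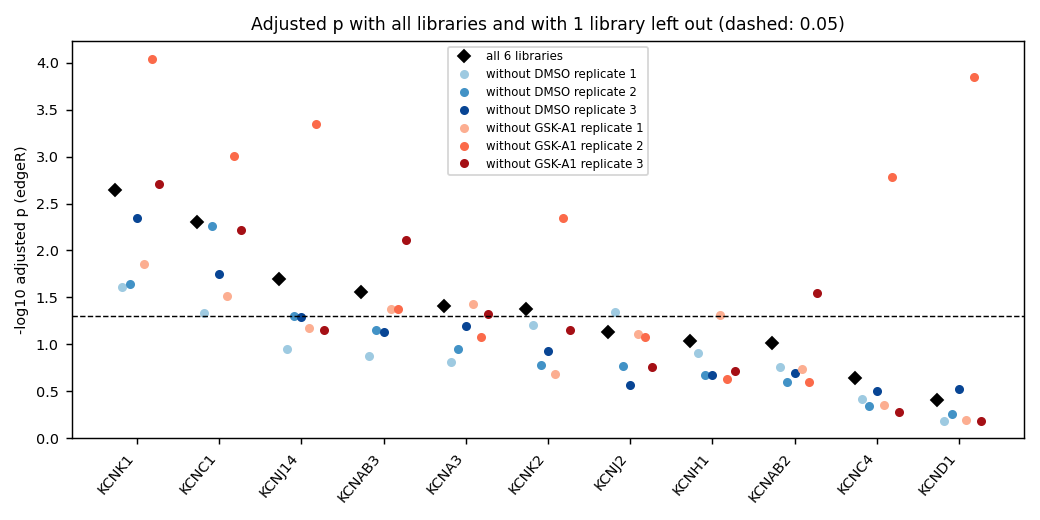
Minus log10 of the edgeR adjusted p for 11 of the members called in the fit of all 6 libraries (diamonds) or in a fit with 1 library left out (circles), with the threshold of 0.05 as a dashed line. KCNK1 and KCNC1 lie above the line in all 7 fits, and KCND1 and KCNC4 lie above it without GSK-A1 replicate 2.

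Members listed here as gated or regulated by phosphoinositides were the inward rectifiers, the KCNQ family, KCNK2, KCNK10, KCNMA1 and KCNH2. They numbered 17, of which 16 were tested. Of these, 1 was called higher (KCNJ14) and 2 lower, among them KCNK2, which is 18.8%, beside the 22.9% of all genes. All 3 calls were lost with DESeq2 and when GSK-A1 replicate 1 or either of DMSO replicates 2 and 3 was omitted. The share called over all genes was 22.0% with DESeq2 and 15.9%, 13.2% and 12.7% without these libraries, in this order. The other 30 members had 5 called, or 16.7%. Log2 fold changes were negative in 14 of the 16, with a median of -0.18, and in 17 of the other 30, with a median of -0.03. The first median ranged from -0.22 under upper-quartile factors to -0.06 without DMSO replicate 2, where KCNJ5 was not tested and 15 members remained. That of the other 30 ranged from -0.07 to 0.03, above 0 with the GC trend removed. The 16 include many low members with wide intervals. Among them KCNJ5 (negative) and KCNQ3 (positive) each met the count minimum only through the group where it is higher. The list was chosen by hand and may leave out regulated channels, so the other 30 need not be free of such regulation. No test of the difference between the lists was made.

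Genes that set the potassium gradient were read beside the channels, from a list of 29 pumps, cotransporters and their kinases, of which 19 were tested. There were 6 called higher and 3 lower (47.4%, beside 22.9% of all genes), and the median log2 fold change was 0.08. That balance depended on the scaling and the libraries: upper-quartile factors gave 3 higher and 4 lower, and DESeq2 6 and 1. Leaving out DMSO replicate 1 gave 2 and 2, DMSO replicate 2 or 3 gave 3 and 1, GSK-A1 replicate 1 gave 4 and 1, and GSK-A1 replicate 2 gave 9 and 3. Calls over all genes moved too. Their share was 12.9%, 13.2% and 12.7% without DMSO replicates 1, 2 and 3. It was 15.9% and 28.1% without GSK-A1 replicates 1 and 2. Of all calls, 33.3% were higher under upper-quartile factors and 62.5% with DESeq2, against 52.3% in the main fit. ATP1B1, a beta subunit of the sodium-potassium pump, rose from 44.1 ± 1.0 to 54.2 ± 1.3 CPM (SD, n = 3; 0.30 ± 0.04, edgeR adjusted p = 1.75e-04), and FXYD5, a pump regulator, by 0.19 ± 0.05 (edgeR adjusted p = 0.00759). WNK2, a kinase of the family that controls the cotransporters, fell from 46.0 to 37.3 CPM (-0.30 ± 0.05, edgeR adjusted p = 4.16e-04). Of 12 tested channel partners outside the KCN symbols, 3 were called (25.0%, beside 22.9% of all genes). NEDD4L, a ubiquitin ligase that removes KCNQ and sodium channels from the membrane, was called higher (0.37 ± 0.04, edgeR adjusted p = 2.41e-05). CALM3, a calmodulin gene whose protein is a subunit of KCNN and KCNQ channels, was called lower (-0.25 ± 0.03, edgeR adjusted p = 6.22e-05), as was the pacemaker channel HCN3 (-0.30 ± 0.09, edgeR adjusted p = 0.0216). Without DMSO replicate 1 or 2 or GSK-A1 replicate 1, 1 partner was called higher and 1 lower. The share called over all genes was then 12.9%, 13.2% and 15.9%. Of the exonic length of HCN3, 13.5% lay under PKLR on the other strand, and of that of CALM3 8.07% under an antisense gene.

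Of the 95 rows with a KCN symbol, 48 fell short of the count minimum, and 12 of these had no count in any library, among them KCNE3, KCNIP1, KCNJ13 and KCNV2. A count of 0 over all 243540860 counts allows a level of up to 0.0123 CPM (3 counts). Nearest below the minimum was KCNK9, with 8, 7 and 6 counts with DMSO and 16, 9 and 15 with GSK-A1. It is no member, and it passed the filter of the test only through the GSK-A1 libraries, where it is high, so its call (log2 fold change 1.05 ± 0.36, edgeR adjusted p = 0.0442) is given as a description. KCNA1 had 7, 1 and 1 counts with DMSO and 8, 10 and 8 with GSK-A1. Nearest above the minimum, with 10 counts in just 3 libraries, were KCNK10, KCNJ1, KCNJ5 and KCNQ3, all given above. No KCNE subunit met the minimum.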

How the data were processed

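Total RNA from 6 samples of HEK293 cells was made into TruSeq stranded libraries and sequenced on a HiSeq instrument, per the labels' protocols, and all 6 carry the same lane label. The authors deposited 1 table of raw read counts per gene. Per the submitters' processing notes it was made with cutadapt 5.1, STAR 2.7.11b, featureCounts of Subread 2.1.1 and GRCh38.p13, and DESeq2 1.38.0 is named too. The annotation release, strand setting and filters are not given in the sources used here, so reads of antisense or overlapping genes may be counted together.

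Counts were filtered with filterByExpr, scaled by trimmed mean of M values and tested with edgeR 4.0.16 (R 4.3.3; robust quasi-likelihood F test), with Benjamini-Hochberg adjustment over 16754 genes and calls under 0.05. The script was tested on simulated data. Standard errors are the log2 fold change divided by the root of F. Libraries held 33040178 to 47777233 counts, so 1 count is 0.0209 to 0.0302 CPM; floors and intervals of counts cover counting error only. Exon lengths, GC content and overlaps come from GENCODE 29. Alternatives were other scalings and filters, DESeq2 1.42.0, limma-voom (limma 3.58.1), a block for the replicate number, removal of a GC trend, a stricter threshold and leaving out each library. Named genes are the called members, the highest per kilobase in each subfamily, the phosphoinositide-gated members, those whose call changed when 1 library was left out, and up to 4 called genes with the smallest p in each other list. Further members are named to complete their families, after their values were seen. Members and lists were chosen with earlier results of these data known. Some genes are not reported here.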

Additional observations from a re-analysis of the deposited data

How the results depend on the processing

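Of 46 members tested, 4 were called higher and 4 lower. DESeq2 called 2 and 2, and a threshold of 0.01 called 2 and 1, beside 22.0% and 11.2% of all genes. Leaving out 1 library gave 2 to 5 called higher and 1 to 5 lower. The causes were not tested. Over all genes, 3835 were called with all 6 libraries and 2163 to 4890 with 1 left out, lowest without DMSO replicate 1 and highest without GSK-A1 replicate 2. At the 0.01 threshold 1871 genes were called in all. Calls over all genes were higher in 52.3%, but in 62.5% with DESeq2, 64.4% after removing the GC trend and 33.3% with upper-quartile scaling. The members' median of -0.07 was -0.11 under upper-quartile factors, -0.049 with no filter, -0.045 with a mean of at least 1 CPM, -0.046 with DESeq2, -0.052 with limma-voom and -0.030 with the GC trend removed. Leaving out 1 library moved it from -0.092 to -0.034. The fit without DMSO replicate 2, at -0.034, tested 45 members, and that with a mean of at least 1 CPM tested 35.

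Signs turned in 13 members, none of which was called in any fit, and the causes were not tested. With the GC trend removed, log2 fold changes were 0.054 for KCNG1, 0.078 for KCNH2, 0.058 for KCNH3, 0.088 for KCNJ11 and 0.088 for KCNJ4. KCNG1 was 0.0050 with relative log expression (RLE) factors, 0.0066 with no filter and 0.011 with DESeq2, and KCNJ11 was 0.0023, 0.0050 and 0.0067. Under upper-quartile factors KCNK13 was -0.012 and KCNN2 -0.015. Leaving out 1 library turned these and others, in these ranges: KCNA2 -0.34 to 0.50, KCND3 -0.21 to 0.032, KCNG1 -0.034 to 0.042, KCNH2 -0.058 to 0.048, KCNH3 -0.095 to 0.062, KCNJ1 -0.63 to 0.13, KCNJ11 -0.019 to 0.032, KCNJ4 -0.052 to 0.029, KCNJ8 -0.074 to 0.0055, KCNK13 -0.14 to 0.25, KCNMB4 -0.10 to 0.037, KCNN2 -0.066 to 0.16 and KCNN3 -0.23 to 0.0024.

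The replicate number as a block called the same 8 members, 4 higher and 4 lower, with a median of -0.07, and 4127 genes in all. Same-numbered libraries correlated at 0.011, 0.019 and 0.032 in their deviations from the group means. GSK-A1 replicates 2 and 3 correlated best with their own number. GSK-A1 replicate 1 correlated about equally with DMSO replicates 1 (0.011) and 2 (0.012). All these values were small and the labels' protocols name no paired design, so the numbers were not taken as pairs.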

Other observations

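Calcium and sodium channel subunits, which shape the signals that potassium channels end, were read from a list of 32 genes. Of 20 tested, 3 were called higher and 3 lower (30.0%), beside 22.9% of all genes, with a median log2 fold change of -0.04. Without DMSO replicate 1 these counts were 1 and 2, without DMSO replicate 2 they were 2 and 1, and without DMSO replicate 3 they were 3 and 1. The share called over all genes was then 12.9%, 13.2% and 12.7%. DESeq2 and the omission of GSK-A1 replicate 3 each gave 2 and 2, beside 22.0% and 21.9% of all genes. CACNB4, a beta subunit of voltage-gated calcium channels, rose from 17.1 ± 0.35 to 21.5 ± 1.7 CPM (SD, n = 3; 0.32 ± 0.06, SE; edgeR adjusted p = 0.00225). SCN4B, a beta subunit of sodium channels, fell from 6.04 to 4.32 CPM (-0.46 ± 0.12, edgeR adjusted p = 0.0112). SCN9A, the pore subunit of a sodium channel of sensory neurons, fell from 17.1 to 14.5 CPM (-0.24 ± 0.06, edgeR adjusted p = 0.00851).

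KCNK1 was called higher and KCNK2 lower, and the ratio of their counts within a library does not depend on its scaling. This ratio was chosen after its values were seen. KCNK1 per KCNK2 was 0.905, 0.858 and 0.978 with DMSO and 1.37, 1.25 and 1.23 with GSK-A1. With KCNK1 higher and KCNK2 lower in every GSK-A1 library the ratios could not overlap, so they restate both calls and add no support.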
